A study of Mus musculus with 7 samples.

Results

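The transcripts described here are 10 genes of protein folding and stress sensing in the endoplasmic reticulum, chosen by name: Hspa5, Hsp90b1, Calr, Pdia4, Pdia6, Dnajb9, Herpud1, Xbp1, Ern1 and Atf6. All 10 were found once each among the 54532 genes of the table, and all 10 passed the filter on low values that left 15472 genes to test. Mouse RNA was sequenced after poly(A) selection in 7 libraries of 3 genotypes, with 3 knockout, 2 heterozygous and 2 wildtype libraries for Agbl5. Agbl5 encodes CCP5, a carboxypeptidase that removes the branching glutamate of polyglutamylated tubulin, and the series asked what it does in photoreceptors. The labels gave the tissue as eyeball and the extraction protocol spoke of retina. The age, strain and sex of the mice, the way the allele was made and whether each library came from its own animal were not given in the sources used here, so the p-values measure only the spread between these libraries, which may be technical.

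Proteins bound for membranes or for secretion fold in the endoplasmic reticulum, where chaperones and disulfide isomerases assist them. When unfolded protein builds up there, sensors in the membrane of the organelle, among them IRE1 (the product of Ern1), ATF6 and PERK, start a response in which the genes of chaperones and of disposal factors are transcribed more. Photoreceptors renew their outer segments throughout life and pass large amounts of membrane protein through this compartment. IRE1 acts by splicing Xbp1 messenger RNA and ATF6 by being cut into a transcription factor. Values per gene show neither step, only how much transcript was present.

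ATF6 and the spliced XBP1 protein act through short elements in promoters, and the windows that held an exact match to one of them are printed here. Of the 10 genes, 9 had a RefSeq promoter window (build GRCm38.p6) from 250 bases before to 50 bases after the start site, and none was found for Atf6. The ER stress response element, searched as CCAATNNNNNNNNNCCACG on both strands, was in the windows of Hspa5, Hsp90b1, Calr and Pdia6, that is 4 of 9, and in 0.119% of all 32851 windows. Hsp90b1 held it once on each strand. The related element ERSE-II, searched on both strands as ATTGG, any 1 base and CCACG, was in the Herpud1 window and in 0.0365% of all windows. A core of the unfolded protein response element, searched as TGACGTG on both strands, was in the Hspa5 window and in 2.01% of all windows. No match overlapped another. The genes were chosen by name from the pathway that uses these elements, so the shares describe the windows and test nothing. The exact letters of these elements were not in the windows of Pdia4, Dnajb9, Xbp1 and Ern1. The 250 bases before the start site are given 5′ to 3′ on the strand of the gene, with the matches in capitals: Hspa5 from chr2:34771840-34772089 (plus strand), Hsp90b1 from chr10:86705445-86705694 (minus strand), Calr from chr8:84846932-84847181 (minus strand), Pdia6 from chr12:17266339-17266588 (plus strand) and Herpud1 from chr8:94386179-94386428 (plus strand).
Hspa5: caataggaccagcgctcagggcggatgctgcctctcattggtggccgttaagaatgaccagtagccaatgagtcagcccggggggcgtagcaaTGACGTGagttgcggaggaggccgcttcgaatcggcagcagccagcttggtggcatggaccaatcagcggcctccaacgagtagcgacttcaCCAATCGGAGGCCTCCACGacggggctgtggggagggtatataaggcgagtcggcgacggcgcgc
Hsp90b1: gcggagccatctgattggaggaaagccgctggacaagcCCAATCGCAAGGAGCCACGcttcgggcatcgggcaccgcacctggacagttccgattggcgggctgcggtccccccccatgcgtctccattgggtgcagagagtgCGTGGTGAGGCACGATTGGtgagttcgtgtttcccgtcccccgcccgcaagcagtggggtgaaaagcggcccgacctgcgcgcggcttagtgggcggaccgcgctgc
Calr: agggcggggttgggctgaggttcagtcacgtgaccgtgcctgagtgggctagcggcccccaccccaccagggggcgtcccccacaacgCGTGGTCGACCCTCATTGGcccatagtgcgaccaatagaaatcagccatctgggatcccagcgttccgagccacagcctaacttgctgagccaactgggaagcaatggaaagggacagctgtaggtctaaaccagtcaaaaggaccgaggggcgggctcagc
Pdia6: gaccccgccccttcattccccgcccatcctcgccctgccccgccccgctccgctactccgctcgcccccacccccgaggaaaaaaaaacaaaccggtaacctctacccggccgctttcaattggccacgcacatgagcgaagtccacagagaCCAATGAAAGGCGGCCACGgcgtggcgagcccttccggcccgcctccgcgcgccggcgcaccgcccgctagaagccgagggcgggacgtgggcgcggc
Herpud1: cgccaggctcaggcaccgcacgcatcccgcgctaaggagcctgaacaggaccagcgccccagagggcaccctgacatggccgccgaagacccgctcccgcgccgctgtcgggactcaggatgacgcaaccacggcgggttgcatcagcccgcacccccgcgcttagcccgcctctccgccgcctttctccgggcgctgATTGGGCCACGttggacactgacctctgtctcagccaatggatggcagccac
The ER stress response element of Hspa5 ended 46 bases before the RefSeq start site, that of Pdia6 79 bases and that of Calr 143 bases. Those of Hsp90b1 ended 193 and 88 bases before it. In Herpud1 the ERSE-II match ended 41 bases before the RefSeq start site. GENCODE gene starts, used for the gene positions below, differ from these. For Hspa5, Hsp90b1, Calr and Pdia6 they fall inside the printed bases. The ER stress response element of Hspa5 lies past its GENCODE start, chr2:34771970.

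Agbl5 transcript checked the labels. It averaged 1.51 ± 0.233 FPKM (fragments per kilobase, scaled to the size of the library; SD) in 3 knockout libraries, 4.78 ± 0.805 in 2 heterozygous and 9.23 ± 0.935 in 2 wildtype libraries, and the 3 genotypes did not overlap. Between knockout and wildtype the log2 difference was -2.03 ± 0.13 (SE; limma, adjusted p = 0.00406), and the call was lost when wildtype 1 (adjusted p = 0.0768) or wildtype 2 (adjusted p = 0.0728) was left out, and when both libraries rich in lens transcripts were left out (adjusted p = 0.0518). The libraries held 11403904 to 13398752 recovered reads. Rod markers were high in every library. Gnat1, the rod transducin alpha subunit, was at 2428 to 2468 FPKM in knockout and 2512 to 2904 FPKM in the other libraries. The 8 rod markers summed to 9216 to 9589 FPKM in knockout, 10175 to 11183 in heterozygous and 10135 to 10438 in wildtype libraries. Among them Sag went the other way, at 467 to 486 FPKM in knockout and 322 to 380 FPKM in the other libraries. Cone markers were present, with Opn1sw at 134.6 to 149 FPKM. The 6 cone markers summed to 426 to 461 FPKM in knockout, 450 to 535 in heterozygous and 505 to 530 in wildtype libraries. The 12 lens markers summed to 6503 FPKM in knockout 1 and 3686 FPKM in heterozygous 1, and to 5.97 to 44.2 FPKM in the other 5 libraries. The 9 markers of pigment epithelium and melanocytes summed to 81.2 to 270.4 FPKM in knockout, 127 to 237 in heterozygous and 45.0 to 155 in wildtype libraries, and the 6 microglial markers to 33.2 to 36.2, 14.9 to 18.2 and 16.9 to 17.2 FPKM in the same order. Summed markers of Mueller glia ran from 1204 to 1386 FPKM over the 7 libraries, of cornea from 0.753 to 7.45 and of muscle from 3.38 to 4.02. Those of secretory glands and plasma cells, which are rich in these chaperones, ran from 42.3 to 53.5 FPKM. Amy1 (34.7 to 44.6 FPKM) and Jchain (6.51 to 8.72 FPKM) made up nearly all of that sum. Its other markers Mzb1, Bhlha15, Lpo and Prr27 averaged 0.478, 0.230, 0.0651 and 0 FPKM, so the sum does not show that such cells were present. Red blood cell markers summed to 31.1 to 43.5 FPKM in knockout, 32.7 to 49.5 in heterozygous and 47.4 to 68.6 in wildtype libraries. Of the lens, pigment and microglial markers, Lim2 in heterozygous 2 was the only value at 0. In tissue RNA, fewer cells of a type and less RNA per cell cannot be told apart.

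None of the 10 genes passed the test between any genotypes. Limma called 0 of 10 between knockout and wildtype, where it called 0.323% of all 15472 genes, and voom on recovered reads also called 0 of 10 (0.521% of all genes). At an unadjusted p under 0.05 there were 2 of 10, Herpud1 and Pdia6, against 7.50% of all genes, and 2 of 10 with voom against 7.75%. The median log2 difference of the 10 was 0.04, beside 0.00 for all tested genes, with 6 of them above 0 and 4 below. Rescaled to TPM, which put the median over all tested genes at -0.15, 1 of the 10 was above 0 and 9 were below. On the log2(FPKM + 1) scale, their 95% intervals bounded the difference of each gene in tissue RNA that these libraries could have missed. The lowest end was a log2 difference of -0.43 for Herpud1, a fold of 0.742, and the highest end was 0.38 for Pdia6, a fold of 1.31. A 2-fold difference in either direction thus lay outside the interval of each of the 10 genes on that scale. On the TPM scale the estimates themselves were -0.41 for Herpud1 and -0.34 for Dnajb9, so these bounds do not carry over. The intervals do not bound a change within 1 cell type.

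**Figure D1:**
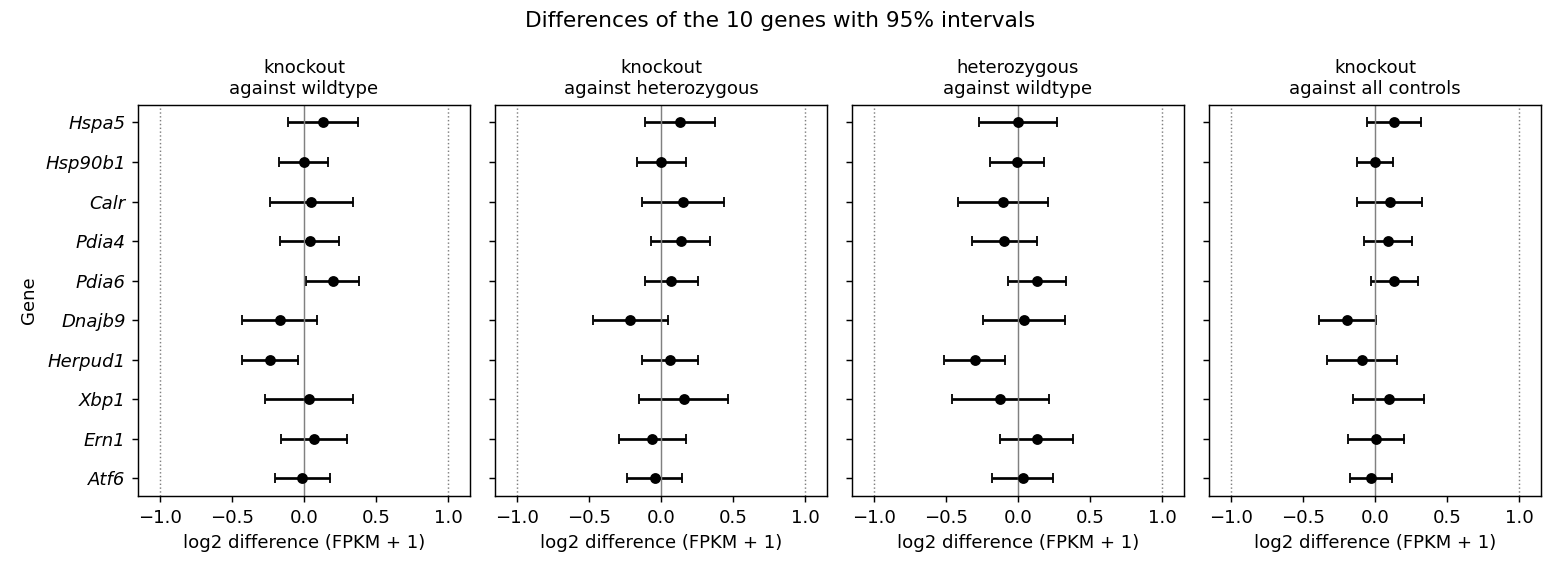
Log2 differences of the 10 genes on the log2(FPKM + 1) scale (points) with their 95% limma intervals (bars), in 4 comparisons; the solid line marks no difference and the dotted lines a 2-fold difference. Every interval ends inside the dotted lines, and between knockout and wildtype only those of Pdia6 and Herpud1 leave out 0.

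The chaperones of the lumen were the most abundant of the 10. Calr, Hsp90b1 and Hspa5 averaged 64.0, 54.3 and 46.0 FPKM over the 7 libraries, and ranked 433, 565 and 706 among the 15472 tested genes. Each overlapped the next in its range over libraries. Pdia4 and Herpud1 (28.0 and 27.7 FPKM), Xbp1 and Pdia6 (19.5 and 19.2 FPKM) and, at the low end, Atf6, Dnajb9 and Ern1 (10.4, 8.66 and 6.97 FPKM) formed further groups whose neighbours overlapped. On the scale per length, the lumenal chaperones thus stood above the sensors Ern1 and Atf6 in every library. Single reads weighed little: the genes held from 265 reads (Dnajb9 in knockout 3) to 3320 reads (Hsp90b1 in wildtype 1).

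Hspa5 encodes BiP, the lumenal Hsp70 that holds the sensors inactive (ENSMUSG00000026864, chromosome 2, 34771970 to 34777547, plus strand, with 4229 exonic bases; these and the next positions are GENCODE M21 on GRCm38). It was at 46.9, 54.1 and 44.5 FPKM in knockout, 44.7 and 43.2 FPKM in heterozygous and 47.4 and 40.8 FPKM in wildtype libraries. Knockout 2 was the highest and wildtype 2 the lowest, and knockout overlapped both other genotypes. The log2 difference between knockout and wildtype was 0.13 ± 0.10 (SE), with a 95% interval from -0.11 to 0.38 (limma, adjusted p = 0.833). Against all 4 controls it was 0.13, with an interval from -0.05 to 0.32 (adjusted p = 0.538).

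Hsp90b1 encodes GRP94, the Hsp90 of the lumen (ENSMUSG00000020048, chromosome 10, 86690209 to 86705509, minus strand). Exons of 3 other gene models overlap 15.7% of its exon bases, one of them on the opposite strand, and the libraries carried no strand, so part of its value is uncertain. It had the smallest spread of the 10, at 52.9, 57.9 and 52.1 FPKM in knockout, 55.5 and 52.8 FPKM in heterozygous and 56.3 and 52.4 FPKM in wildtype libraries. The means of knockout and wildtype, 54.3 ± 3.15 (n = 3) and 54.3 ± 2.76 FPKM (SD, n = 2), were closer than their spread, and the interval of the log2 difference ran from -0.17 to 0.17 (limma, adjusted p = 0.996). Calr encodes calreticulin, the lectin chaperone that binds calcium and glycoproteins (ENSMUSG00000003814, chromosome 8, 84841850 to 84846934, minus strand). It was at 65.1, 74.1 and 60.8 FPKM in knockout, 64.3 and 55.3 FPKM in heterozygous and 69.9 and 58.6 FPKM in wildtype libraries, again with overlap. Its log2 difference between knockout and wildtype was 0.05 ± 0.12 (SE; adjusted p = 0.943).

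Pdia4 and Pdia6 encode protein disulfide isomerases, which form and rearrange disulfide bonds. Pdia4 (ENSMUSG00000025823, chromosome 6, 47796141 to 47813430, minus strand) was at 29.6, 29.0 and 28.3 FPKM in knockout, 23.9 and 28.9 FPKM in heterozygous and 28.8 and 27.5 FPKM in wildtype libraries. Heterozygous 1 alone stood low. Its log2 difference between knockout and wildtype was 0.04 ± 0.09 (SE; limma, adjusted p = 0.938), and against heterozygous 0.14 ± 0.09 (adjusted p = 0.549).

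Pdia6 (ENSMUSG00000020571, chromosome 12, 17266545 to 17284770, plus strand) was at 21.4, 20.8 and 18.6 FPKM in knockout, 18.9 and 19.6 FPKM in heterozygous and 18.1 and 16.9 FPKM in wildtype libraries. All 3 knockout libraries stood above both wildtype libraries, and knockout 3 lay below both heterozygous libraries. Its log2 difference between knockout and wildtype was 0.20 ± 0.08 (SE; 95% interval 0.02 to 0.38), without passing over all genes (limma, adjusted p = 0.624). In the alternative settings this difference ran from 0.05 to 0.26. Of the 10 genes, 2 did not overlap between knockout and wildtype, Pdia6 upward and Herpud1 downward, while 28.2% of all tested genes did not overlap, 13.5% higher and 14.7% lower in knockout.

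Herpud1 encodes a membrane protein that helps assemble the complex for degradation of misfolded proteins (ENSMUSG00000031770, chromosome 8, 94386438 to 94395377, plus strand). It was at 27.2, 26.6 and 25.9 FPKM in knockout, 27.1 and 23.8 FPKM in heterozygous and 33.4 and 29.7 FPKM in wildtype libraries. Both wildtype libraries stood above all 5 others, and knockout overlapped heterozygous. The log2 difference from wildtype was -0.24 ± 0.08 in knockout (SE; 95% interval -0.43 to -0.04; limma, adjusted p = 0.574) and -0.30 ± 0.09 in heterozygous libraries (-0.51 to -0.09, adjusted p = 0.974). These 2 comparisons share the wildtype libraries. Knockout against heterozygous gave 0.06 ± 0.08 (adjusted p = 0.779). Over the alternatives the knockout difference from wildtype ran from -0.41 to -0.15, with adjusted p from 0.397 up.

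Dnajb9 encodes ERdj4, a lumenal J-domain cochaperone of BiP (ENSMUSG00000014905, chromosome 12, 44205559 to 44210326, minus strand). It was at 8.30, 7.87 and 7.60 FPKM in knockout, 10.3 and 8.42 FPKM in heterozygous and 8.29 and 9.83 FPKM in wildtype libraries. All 3 knockout libraries lay below both heterozygous ones, and knockout 1 overlapped wildtype 1. The log2 difference was -0.21 ± 0.11 against heterozygous (SE; limma, adjusted p = 0.479), -0.17 ± 0.11 against wildtype (adjusted p = 0.792) and -0.19 against all 4 controls (95% interval -0.39 to 0.01, adjusted p = 0.425). Dnajb9 had the largest spread over the 7 libraries, a coefficient of variation of 11.8%, where the counting error of its reads alone would give 5.68%.

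**Figure D2:**
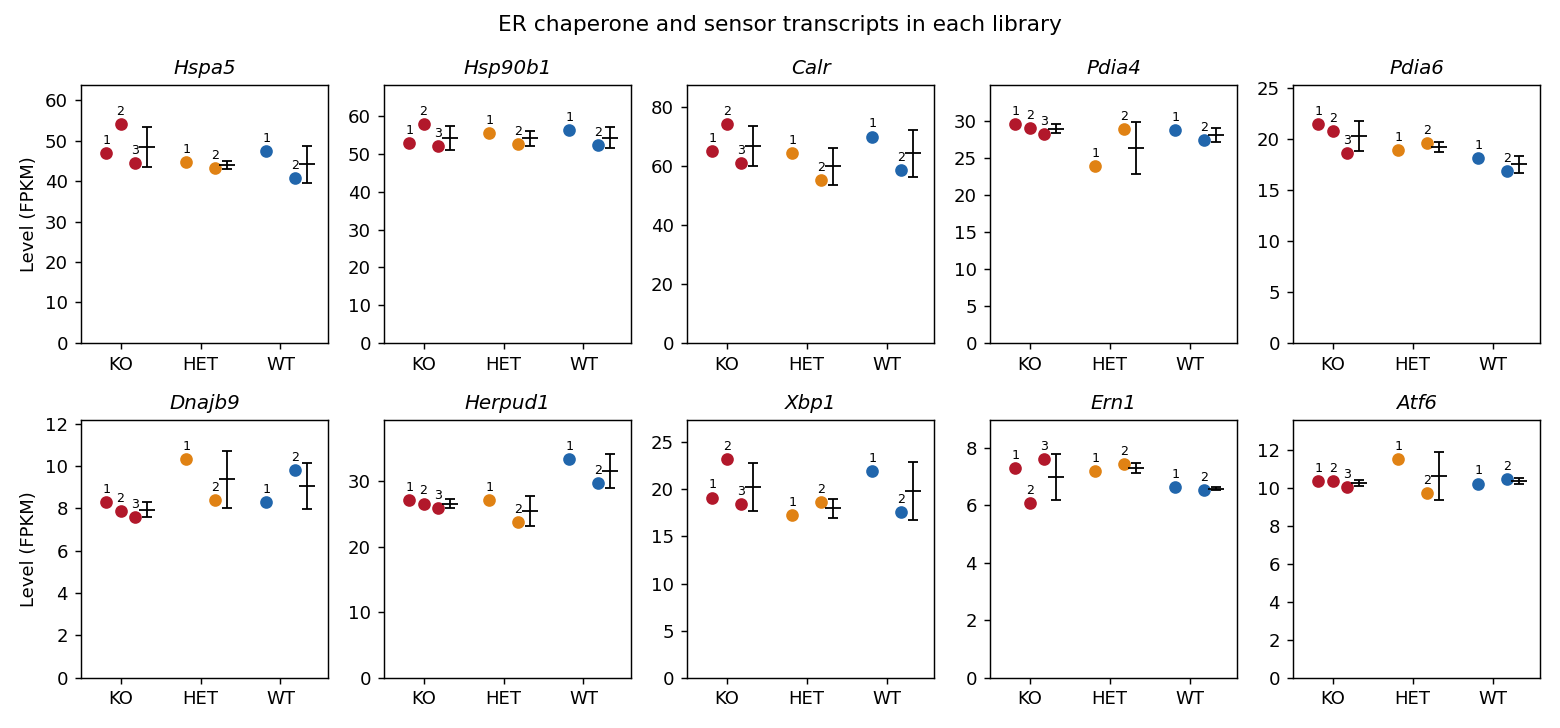
Level of each of the 10 genes (y axis, FPKM, from 0) in every library, by genotype (KO, knockout; HET, heterozygous; WT, wildtype), with the replicate number beside each point and the mean ± SD as a black bar. Genotypes overlap in most panels, while Pdia6 is higher and Herpud1 lower in all 3 knockout libraries than in both wildtype libraries.

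The transcripts of Ern1, of Xbp1, which its product splices, and of Atf6 showed no called difference either. Xbp1 encodes the transcription factor whose messenger RNA is spliced by IRE1 (ENSMUSG00000020484, chromosome 11, 5520659 to 5525893, plus strand). It was at 19.1, 23.2 and 18.5 FPKM in knockout, 17.3 and 18.7 FPKM in heterozygous and 22.0 and 17.6 FPKM in wildtype libraries. Knockout 2 and wildtype 1 stood above the other 5. Its log2 difference between knockout and wildtype was 0.04 ± 0.13 (SE; 95% interval -0.27 to 0.34; limma, adjusted p = 0.967).

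Ern1 encodes IRE1 alpha, the kinase and endoribonuclease that senses unfolded protein (ENSMUSG00000020715, chromosome 11, 106394650 to 106487852, minus strand). It was at 7.29, 6.09 and 7.61 FPKM in knockout, 7.18 and 7.42 FPKM in heterozygous and 6.63 and 6.55 FPKM in wildtype libraries. Knockout spanned the range of both other genotypes, since knockout 2 was the lowest and knockout 3 the highest of all 7. Its log2 difference was 0.07 ± 0.10 against wildtype (SE; limma, adjusted p = 0.90). Atf6, the gene of the membrane-bound transcription factor (ENSMUSG00000026663, chromosome 1, 170704674 to 170867771, minus strand), was at 10.4, 10.4 and 10.1 FPKM in knockout, 11.5 and 9.76 FPKM in heterozygous and 10.3 and 10.5 FPKM in wildtype libraries. Its log2 difference between knockout and wildtype was -0.01 ± 0.08 (adjusted p = 0.983), with an interval from -0.20 to 0.18.

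Against heterozygous libraries, to ask what loss of the second allele adds, limma again called 0 of the 10 genes in knockout, beside 0.317% of all genes, and voom called 0 of 10 (0.528% of all genes). None of the 10 had an unadjusted p under 0.05, against 12% of all genes (13.0% with voom). The differences ran from -0.21 for Dnajb9 to 0.16 for Xbp1, with intervals ending at -0.47 and 0.46 for the same genes. Dnajb9 alone did not overlap between these genotypes, lower in knockout, where 29.8% of all genes did not overlap, 15.3% higher and 14.5% lower in knockout. Heterozygous against wildtype gave 0 called of 10 and 0 of all genes with limma and with voom. Agbl5 itself was thus not called, at a log2 difference of -0.83 ± 0.14 (SE; limma, adjusted p = 0.974) without overlap. An absent call in this comparison therefore does not show an absent difference. There, 1 of 10 had an unadjusted p under 0.05, Herpud1, against 4.0% of all genes, and 1 of 10 with voom against 3.68%. Pdia6 and Ern1, higher, and Herpud1, lower in heterozygous libraries, did not overlap between these genotypes, beside 14.3% of all genes higher and 15.7% lower, or 30.0% together. Knockout against all 4 controls together called 0 of 10 (0.614% of all genes) and 0 of 10 with voom (0.988%). No gene of the 10 had an unadjusted p under 0.05 there, against 12.2% of all genes with limma and 12.6% with voom. None was free of overlap, against 13.0% of all genes, 6.75% higher and 6.26% lower in knockout. Their intervals lay between -0.39 for Dnajb9 and 0.34 for Xbp1. This last comparison shares its libraries with the others.

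Of the 10 genes, 4 placed the same libraries first and second, 1 from each of 2 genotypes. Hspa5, Hsp90b1, Calr and Xbp1 were each highest in knockout 2 and second highest in wildtype 1, an order that 3.79% of all tested genes showed. The order was read from these genes before it was counted over all genes, so its share is no test. Knockout 2 was the highest library for 16.8% of all tested genes. Pdia4 and Pdia6 were highest in knockout 1 and second in knockout 2, an order whose share over all genes was not counted. Averaged over Hspa5, Hsp90b1, Calr, Pdia4 and Pdia6, the 5 lumenal chaperones and isomerases, the centred log2 level was 0.05, 0.14 and -0.04 in knockout 1, 2 and 3, -0.05 and -0.05 in heterozygous 1 and 2, and 0.04 and -0.10 in wildtype 1 and 2. Knockout 2 and wildtype 1, which led that order for Hspa5, had lens marker sums of 5.97 and 44.2 FPKM. All libraries but knockout 1 and heterozygous 1 were poor in lens transcripts. Knockout 2 and wildtype 1 also had the lowest sums of pigment epithelium and melanocyte markers. These sums were 81.2 and 45.0 FPKM, beside 127 to 270.4 FPKM in the rest. Heterozygous 1, rich in lens transcripts, held the lowest Pdia4 and Xbp1 and the highest Dnajb9 and Atf6 of the 7 libraries. Knockout 1, also rich in lens transcripts, held the highest Pdia4 and Pdia6. The part of the lens and pigment cells in these levels was not tested directly. Fits without both lens-rich libraries and fits with a covariate for the lens level each called 0 of the 10 genes in all 4 comparisons, and no fit took in the pigment cell level.

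The spread of the 10 genes over all 7 libraries was near that of tested genes at like levels. Their coefficients of variation ran from 4.19% for Hsp90b1 to 11.8% for Dnajb9, with a median of 8.63%, and the 6977 tested genes within their range of levels had a median of 8.11%. The largest ratio between the highest and the lowest library was 1.40, for Herpud1.

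**Figure D3:**
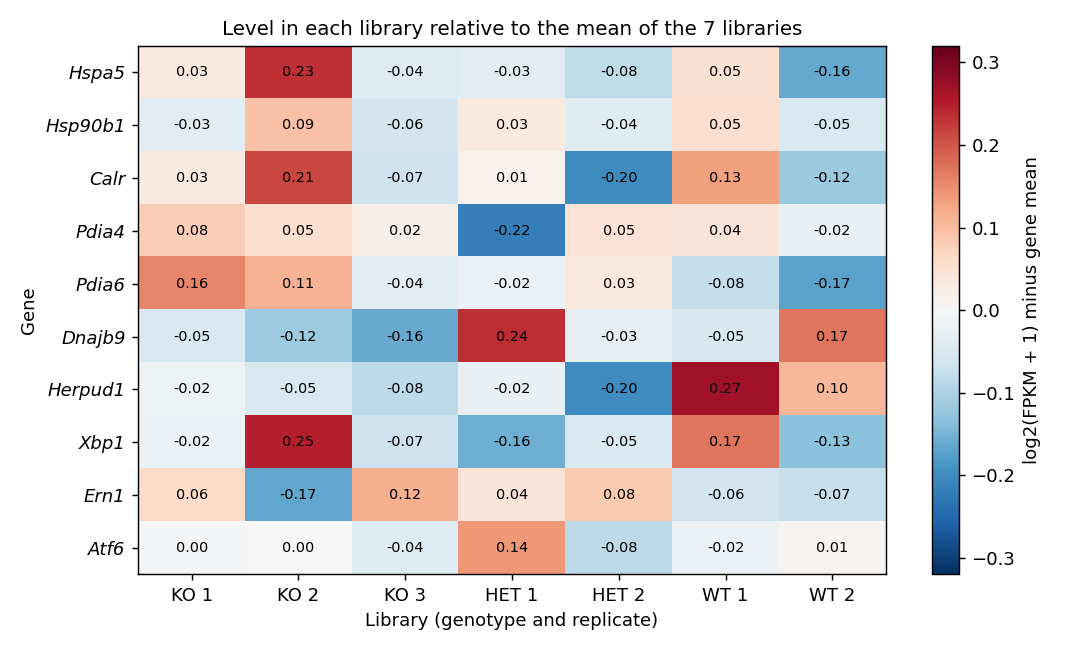
Level of each gene in each library as log2(FPKM + 1) minus the mean of that gene over the 7 libraries (colour and printed value). Hspa5, Calr and Xbp1 are highest in KO 2, at 0.23, 0.21 and 0.25, and Herpud1 is highest in WT 1, at 0.27.

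The genes whose pattern over the 7 libraries was most like the mean of the 5 lumenal chaperones and isomerases were Sh3bp5, Rtn2, Strn4 and Ptma, taken as the highest Pearson correlations among 8245 named genes whose mean reached 5 FPKM. Sh3bp5, which encodes an SH3-domain binding protein, had a Pearson correlation of 0.98 and a Spearman correlation of 1.00, and Ptma, which encodes prothymosin alpha, had 0.96 and 0.86 for the same measures, over the same 7 libraries. These values describe the closest of many genes and share libraries and scaling with the chaperones.

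Beyond the 10 genes, 76 other genes of the compartment were followed in 6 lists, 74 of which were tested. These lists hold no gene of the 10. Limma called 0 of the 74 in each of the 4 comparisons. At an unadjusted p under 0.05 there were 3 between knockout and wildtype (7.50% of all tested genes), 13 between knockout and heterozygous (12% of all), 5 between heterozygous and wildtype (4.0% of all) and 10 between knockout and all controls (12.2% of all). The counts of the single lists that follow are between knockout and wildtype unless another comparison is named. Voom called 0 of the 71 with recovered reads in each comparison. The median log2 difference of the 74 between knockout and wildtype was 0.03, with 41 above 0 and 33 below.

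Of the 11 other lumenal chaperones and cochaperones, 0 passed between knockout and wildtype, with a median of 0.05, and 1 had an unadjusted p under 0.05. Dnajc10, a disulfide reductase with a J domain, was at 16.1 ± 1.07 FPKM in knockout (SD, n = 3) and 19.0 ± 1.79 FPKM in wildtype libraries (n = 2; log2 difference -0.23, limma, adjusted p = 0.624). Creld2, a protein of the compartment that ER stress induces, was at 16.1 ± 1.34 FPKM in knockout and 14.8 ± 0.461 FPKM in wildtype libraries (0.11, adjusted p = 0.824). The 8 disulfide isomerases and oxidases had 0 called, 1 with an unadjusted p under 0.05 and a median of -0.06. Ero1l, an oxidase that recharges disulfide isomerases, was at 11.5, 11.4 and 11.6 FPKM in knockout and 13.7 and 13.0 FPKM in wildtype libraries (log2 difference -0.20; limma, adjusted p = 0.475), without overlap, as for 28.2% of all tested genes. Pdia5, a further isomerase, had a log2 difference of -0.15 (adjusted p = 0.697).

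Degradation of misfolded proteins was represented by 16 other genes, of which Derl3 stayed below the filter and 0 of 15 passed (1 at an unadjusted p under 0.05), with a median of 0.01. Syvn1, the ubiquitin ligase HRD1, was at 15.5, 16.6 and 15.8 FPKM in knockout, 12.1 and 12.8 FPKM in heterozygous and 14.2 and 13.8 FPKM in wildtype libraries. All 3 knockout libraries lay above the 4 others, as they did for 6.75% of all tested genes, with log2 differences of 0.18 ± 0.06 against wildtype (SE; limma, adjusted p = 0.585) and 0.33 ± 0.06 against heterozygous (adjusted p = 0.152). Edem2, a mannosidase of glycoprotein disposal, had a log2 difference of -0.23 from wildtype (adjusted p = 0.666). Of the 14 regulators of the sensors and other sensors, Creb3l1 stayed below the filter and 0 of 13 passed (0 at an unadjusted p under 0.05), with a median of 0.05. Nfya, a subunit of the factor that binds CCAAT, and Mbtps1, the site-1 protease that cuts ATF6, had log2 differences of -0.18 and 0.10 (adjusted p = 0.736 and 0.795). The 17 genes of the translocon and of signal peptide processing had 0 called, 0 with an unadjusted p under 0.05 and a median of -0.04 between knockout and wildtype. Between knockout and heterozygous 5 of the 17 had an unadjusted p under 0.05, beside 12% of all tested genes, with 0 called and a median of -0.01. Against wildtype, Spcs3, a signal peptidase subunit, had a log2 difference of -0.22 in knockout (limma, adjusted p = 0.692) and Sec61a1, the channel subunit, 0.14 (adjusted p = 0.733).

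The list for the PERK branch held genes that phosphorylation of eIF2 alpha induces, and also Eif2s1, the gene of eIF2 alpha, and Ppp1r15b. None of its 10 genes passed in any comparison. Between knockout and wildtype 0 had an unadjusted p under 0.05 (7.50% of all tested genes), and the median was -0.02. At that level there was 1 between knockout and heterozygous (12% of all) and 1 between knockout and all controls (12.2% of all). Between heterozygous and wildtype there were 3 (4.0% of all), Ddit3, Trib3 and Atf3. Each was lower in heterozygous libraries, with log2 differences of -0.35, -0.41 and -0.64 (limma, adjusted p = 0.974 for each). Ddit3 encodes the transcription factor CHOP. It was at 23.2, 22.6 and 20.8 FPKM in knockout, 18.3 and 21.5 FPKM in heterozygous and 26.5 and 24.8 FPKM in wildtype libraries. Its log2 difference between knockout and wildtype was -0.20 (limma, adjusted p = 0.688). Ppp1r15b, a regulatory subunit of the phosphatase that acts on eIF2 alpha, was at 9.61, 9.85 and 9.83 FPKM in knockout and 11.4 and 11.1 FPKM in wildtype libraries (-0.19, adjusted p = 0.763). Both genes lay lower in all 3 knockout libraries than in both wildtype libraries, as did 14.7% of all tested genes. Nupr1, Atf3 and Trib3 were singled out after their values were seen. Nupr1, a stress-inducible nuclear protein, had the largest difference of the branch between knockout and wildtype, 1.49 ± 0.96 (SE; adjusted p = 0.792). It was at 21.8 FPKM in knockout 1 and 15.2 FPKM in heterozygous 1, the libraries with the highest lens marker sums, and at 1.28 to 3.10 FPKM in the other 5. Atf3, a stress-induced transcription factor, was at 3.76, 5.36 and 5.81 FPKM in knockout, 2.20 and 2.10 FPKM in heterozygous and 4.06 and 3.76 FPKM in wildtype libraries. Its log2 difference was 0.91 ± 0.16 against heterozygous (SE; limma, adjusted p = 0.135) and 0.27 ± 0.16 against wildtype (adjusted p = 0.78).

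**Figure D4:**
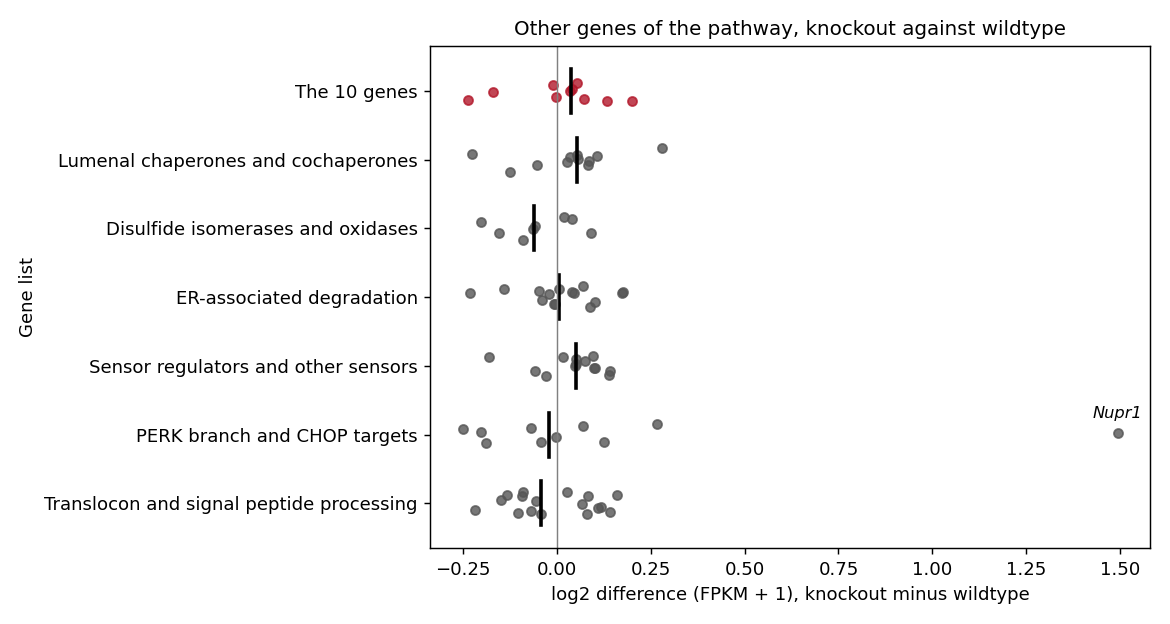
Log2 difference between knockout and wildtype on the log2(FPKM + 1) scale (x axis) for each tested gene (points) of the 10 genes described and of 6 lists of other genes of the pathway (rows); black bars are list medians. The medians lie between -0.06 and 0.05, and Nupr1 alone stands apart, at 1.49.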

How the data were processed

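Expression of 54532 genes was deposited by the authors as FPKM, with 1 column per library. The submitters' processing notes name Bowtie2 2.0.6, TopHat2 2.0.9, DESeq and HTSeq with mm10 and GRCm38; their order, settings and annotation release are not given in the sources used here. Per the labels' protocols the kit was NEBNext Ultra, which does not mark strand. Columns were matched to samples by title.

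FPKM were analysed as log2(FPKM + 1), which understates differences of low genes. The 15472 genes whose mean over 7 libraries reached 1 FPKM entered limma 3.58.1, run in R 4.3.3 (empirical Bayes with a trend, Benjamini-Hochberg adjustment, threshold 0.05). All 3 genotypes entered 1 fit; a fit with 2 groups set knockout against all controls. Intervals are 95% intervals from limma.

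With exon lengths from GENCODE M21 (54409 identifiers found), 96.7% of values above 0 were whole reads within 0.01, and voom was run on these reads, an alternative chosen after seeing the data. Sums over genes whole in every library gave the depth.

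Members and lists were chosen with earlier results of these data known. Besides the 10 genes, the rule named called genes of each pathway list or otherwise the 2 with the smallest p between knockout and wildtype, the most abundant cell type markers and the 4 genes most alike in pattern. The alternatives were a pseudocount of 0.1, no filter, TPM, each library left out, the replicate number as a block, removal of both lens-rich libraries, the lens level as a covariate and fits of 2 genotypes only.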

Additional observations from a re-analysis of the deposited data

How the results depend on the processing

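In 15 alternative settings and 4 comparisons, none of 590 differences of the 10 genes was called. The smallest adjusted p was 0.15, for Pdia4 between knockout and heterozygous without heterozygous 2. Of the 590, 68 changed sign, all of them below 0.14 in size on the main scale. On the TPM scale, which moves the median of all tested genes between knockout and wildtype to -0.15, the differences of that comparison were -0.029 for Hspa5, -0.11 for Calr, -0.12 for Pdia4, -0.13 for Xbp1 and -0.080 for Ern1; between knockout and heterozygous they were -0.082 for Hsp90b1, -0.012 for Pdia6 and -0.020 for Herpud1. TPM divides by the summed FPKM, of which 1 gene, Gm23935, held 17.2%, 7.04% and 14.7% in knockout 1, 2 and 3. Its share was 5.95% and 11.3% in heterozygous and 5.45% and 2.16% in wildtype libraries. The part of Gm23935 in the shift on the TPM scale was not tested. Without both lens-rich libraries Hsp90b1 stood at 0.015 against wildtype, and Pdia4 at -0.010 and Atf6 at 0.061 against heterozygous. With voom Hsp90b1 stood at -0.015 against heterozygous. With 1 library left out, the ranges against wildtype were -0.053 to 0.049 for Hsp90b1, -0.072 to 0.18 for Calr, -0.12 to 0.19 for Xbp1 and -0.025 to 0.0033 for Atf6; against heterozygous they were -0.043 to 0.038 for Hsp90b1, -0.12 to 0.025 for Ern1, -0.15 to 0.068 for Atf6 and -0.027 to 0.15 for Herpud1.

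The labels give replicate numbers without saying that they mark a shared animal or day. Same-numbered libraries deviated together between knockout and heterozygous (r = 0.43 and 0.271 across genes), not between other genotypes (-0.0233 to 0.0919). Deviations were taken from the mean of each genotype, so the 2 libraries of a genotype with only 2 mirror each other. The values of r are therefore not independent. Knockout 1 and heterozygous 1 were also the libraries rich in lens transcripts. The fit with a replicate block called 0 of the 10 genes in each comparison, and put Hsp90b1 at 0.027 and Atf6 at 0.0021 against wildtype. Agbl5 lost its call there against wildtype (adjusted p = 0.0841). Of all genes, 3 were called between knockout and wildtype, 0 between knockout and heterozygous and 38 between knockout and the controls.

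The counts over all genes, the background of the 10, were 50 between knockout and wildtype, 49 between knockout and heterozygous, 0 between heterozygous and wildtype and 95 between knockout and the 4 controls. With 1 library left out they ran from 5 to 53, 14 to 40, 0 to 3 and 45 to 90. Without both lens-rich libraries 3, 0 and 48 genes were called for the comparisons of knockout, and with voom 77, 78 and 146. For knockout against wildtype 26 were called on the TPM scale and 28 with a covariate for the lens level. Fits of the 2 genotypes alone called 31 for knockout against heterozygous and 1 for heterozygous against wildtype, where no filter gave 19. The cause of these shifts was not tested. Depth limits Dnajb9 most, with 265 to 378 reads per library.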

Other observations

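The ER stress response element was followed beyond the 10 genes, as a search chosen after the data were seen. Its exact letters stood in the promoter windows of 37 genes in all, of which 16 were tested, among them Hspa5, Hsp90b1, Calr and Pdia6. Limma called 0 of the 16 in each of the 4 comparisons, and voom 0 of the 15 with recovered reads. Between knockout and wildtype 2 had an unadjusted p under 0.05 with limma, beside 7.50% of all tested genes, and 1 with voom, beside 7.75%. Their differences there ran from -0.13 to 0.20 on the log2 scale, with a median of 0.04, beside 0.00 for all tested genes. The 12 that are not among the 10 genes had a median of 0.00. Between knockout and heterozygous the 16 had a median of 0.06, beside 0.01 for all tested genes, and 3 had an unadjusted p under 0.05 with limma, beside 12% of all tested genes, and 2 with voom, beside 13.0%.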
